A study of Schizophyllum commune with 14 samples.

Results

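Gat1 and Bri1 are a pair of predicted transcriptional regulators of the split gill mushroom Schizophyllum commune, taken here as the transcript models named '2622515' (Gat1) and '2610188' (Bri1). They match the RefSeq locus tags SCHCODRAFT_02622228 and SCHCODRAFT_02609901. They are 2 of the 16319 transcript models counted in every library, and both passed the filter on low counts that left 14302 models for testing. Gat1 has a GATA-type zinc finger, a fold that binds DNA at sites with the letters GATA. Bri1 carries an ARID/BRIGHT domain, a domain known from animals and yeast that binds DNA, often at AT-rich sites. In this fungus the dikaryon, in which the nuclei of both mates share each cell, makes fruiting bodies after a change from warmth and darkness to cooler conditions with light. Strains that lack Gat1 are known to form more, but smaller, fruiting bodies.

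Poly(A) RNA was sequenced in 14 libraries of a dikaryon of strain H4-8 made by mating the monokaryons H4-8a and H4-8b. The 5 groups were the vegetative mycelium, stage 1 primordia (initials of at most 2 mm), stage 2 primordia (3 to 4 mm), young fruiting bodies (5 to 7 mm) and expanded fruiting bodies. Each group had 3 libraries except stage 2 primordium, which had 2, numbered 2 and 3. All came from the same culture scheme on MM medium, with 5 days of darkness at 30 °C and then 10 days at 25 °C with light for 12 hours a day. The labels give no mutation or treatment in any group. The design text calls the libraries of a stage biological replicates without saying whether they came from separate cultures, so the p-values measure the spread between these libraries.

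Unique reads (reads with 1 placement) came to 13708387 to 24052213 per library. The mycelium libraries were on 1 flow cell and all 11 fruiting libraries on the other, so in any comparison with mycelium the stage and the flow cell cannot be told apart. TMM factors (edgeR's correction of library totals for composition) ran from 0.8597 to 1.214, except for 0.5484 in stage 2 primordium replicate 2. The labels were checked with SC6, a hydrophobin (a small secreted surface protein) of fruiting dikaryons matched here only by an older locus tag. It was at 0.164 to 0.73 CPM in mycelium and higher in every fruiting library. Stage 1 primordium had 112 to 426 CPM, but stage 2 primordium only 1.93 to 2.21. Young fruiting body had 3.01 to 44.8 CPM and fruiting body 3.12 to 148. The aerial-hypha hydrophobin SC3 ranged over 170 to 328 CPM in mycelium, 852 to 2890 in stage 1 primordium, 34.0 to 135 in stage 2 primordium, 9.69 to 1180 in young fruiting body and 3.32 to 16.4 in fruiting body. The highest young fruiting body library thus lay within the range of stage 1 primordium. CPM here are unique reads in proportion to the TMM-adjusted total of their library.

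Gat1 was highest in vegetative mycelium and lower in every fruiting library. It had 7138, 8671 and 6516 unique reads in vegetative mycelium replicates 1 to 3, which is 344, 355 and 280 CPM. In stage 1 primordium it was at 75.6, 108 and 122 CPM. The highest primordium library was thus well under the lowest mycelium library. In stage 2 primordium replicates 2 and 3 it was at 52.1 and 60.7 CPM. Young fruiting body replicates 1 to 3 had 46.4, 62.8 and 59.1 CPM, and those of fruiting body had 36.1, 48.8 and 59.9 CPM. The libraries of the last 3 stages overlapped each other and all lay below the stage 1 primordia. In this bulk RNA, fewer cells that carry a transcript and less of it per cell cannot be told apart.

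Bri1 was highest in the smallest primordia and lay between 23.8 and 53.8 CPM in all other libraries. In vegetative mycelium it was at 45.3, 46.2 and 43.4 CPM. In stage 1 primordium replicates 1 to 3 it was at 98.6, 76.7 and 82.8 CPM, above every other library of the series. Stage 2 primordium had 53.8 and 46.8 CPM, and young fruiting body had 51.8, 53.2 and 49.4. These stages lay close above the mycelium without touching it, but with no TMM factor both their means were below that of mycelium. Fruiting body replicates 2 and 3, at 51.6 and 52.5 CPM, lay within the range of stage 2 primordium, whereas replicate 1 was at 23.8 CPM, the lowest value of the gene in any library.

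**Figure D1:**
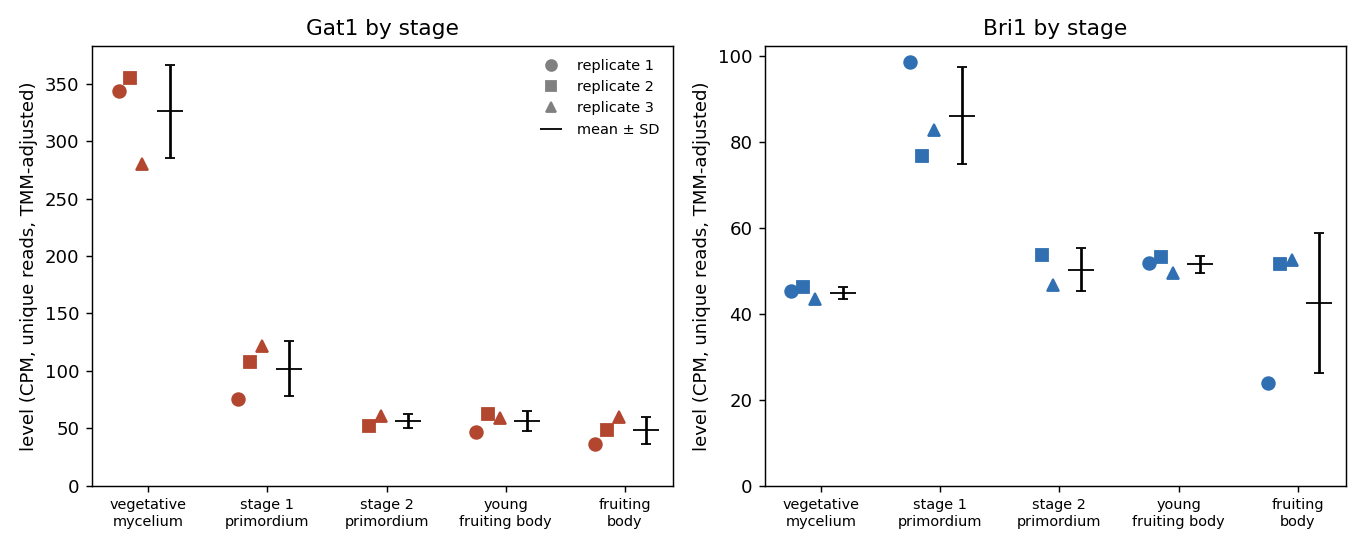
Level of Gat1 (left) and Bri1 (right) in CPM for each of the 14 libraries by stage, with the stage mean and SD beside the points. Gat1 drops from 280 to 355 CPM in mycelium to at most 122 in fruiting, and Bri1 stands at 76.7 to 98.6 CPM in stage 1 primordium and at most 53.8 elsewhere.

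Stage 1 primordium against vegetative mycelium compares the first visible fruiting tissue with the mycelium, and here the genes changed in opposite directions. Gat1 fell from 326 ± 40.4 to 102 ± 23.7 CPM (SD, n = 3 each), 3.21-fold lower (95% interval of the log2 change -2.20 to -1.16; edgeR quasi-likelihood adjusted p = 0.000108). Bri1 rose from 44.9 ± 1.42 to 86.1 ± 11.3 CPM (n = 3 each), 1.91-fold higher (interval 0.40 to 1.48; adjusted p = 0.00832). In both genes all 3 primordium libraries lay on one side of all 3 mycelium libraries. The share of all genes with such a separation was not counted, here or in the comparisons below. A call was not rare in this comparison: 44% of all tested genes were called, 22.5% higher and 21.4% lower. A fall as large as that of Gat1 was fitted for 9.4% of genes and a rise as large as that of Bri1 for 19.1%. The call of Gat1 held in 22 of 22 alternatives. That of Bri1 ended with library totals that had no TMM factor (log2 change 0.62, adjusted p = 0.093), which moved the median of all genes from 0.02 to -0.30. Relative to that median the change of Bri1 was then 0.92. Some alternatives could hardly move these calls, as total and unique reads of both genes were equal and some left-out libraries were of neither stage. None bears on the flow cell.

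Set against mycelium, Gat1 was lower in each later stage too, whereas Bri1 was not called there. Gat1 was 5.78-fold lower in stage 2 primordium, 5.81-fold lower in young and 6.76-fold lower in expanded fruiting bodies (log2 changes -2.53 ± 0.29, -2.54 ± 0.25 and -2.76 ± 0.25 SE; edgeR adjusted p = 2.39e-05, 5.73e-06 and 2.02e-06). Each of these calls held in 22 of 22 alternatives. With no TMM factor the stage 2 change was -3.23, or -2.52 relative to the median of all genes. Here 43.6%, 33% and 42.3% of all genes were called, and 19.3%, 14.1% and 17.9% were called lower. Falls as large as those of Gat1 were fitted for 3.73%, 2.55% and 2.59% of genes. Bri1 was not called in any of the 3 comparisons, with log2 changes of 0.16, 0.20 and -0.08. Their 95% intervals ran from -0.44 to 0.76, from -0.34 to 0.73 and from -0.61 to 0.46. With no TMM factor the first became -0.59 and the second -0.03, or 0.12 each relative to the median of all genes. The third became 0.21 without fruiting body replicate 1. These comparisons share the mycelium libraries with each other and with the one before.

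From stage 1 to stage 2 primordium, as the initials grow and form an apical pit, both genes fell by similar amounts. Gat1 fell from 102 ± 23.7 (n = 3) to 56.4 ± 6.13 CPM (n = 2; log2 change -0.85, 95% interval -1.44 to -0.26; edgeR adjusted p = 0.0241). Bri1 fell from 86.1 ± 11.3 to 50.3 ± 4.93 CPM (-0.77, interval -1.39 to -0.16; edgeR adjusted p = 0.0434). Both stage 2 libraries lay below all 3 stage 1 libraries for each gene. Calls were made for 41.5% of all genes, 19.3% lower. These calls stand near the threshold, and single libraries end them. That of Gat1 ended without stage 1 primordium replicate 2 or 3 or stage 2 primordium replicate 2 or 3 (log2 change -0.81, -0.68, -0.75 and -0.91; adjusted p = 0.0638, 0.0856, 0.139 and 0.0577), and in a fit of these stages alone (-0.84, adjusted p = 0.0641). That of Bri1 held without 4 of the 14 libraries, fruiting body replicates 1 to 3 and young fruiting body replicate 2. It ended without any other library, among them stage 1 primordium replicate 1 (-0.64, adjusted p = 0.137) and stage 2 primordium replicate 3 (-0.62, adjusted p = 0.193). Without fruiting body replicate 1, a library of neither stage, the change of Bri1 stayed at -0.77. Its SE then went from 0.29 to 0.16 (edgeR adjusted p = 0.00286). Stage 2 primordium replicate 2 is the library with the low TMM factor: without that factor Gat1 would be at 28.5 CPM there and Bri1 at 29.5. With no TMM factor in any library the changes were -1.22 and -1.21, and both were called (edgeR adjusted p = 0.0122 and 0.0113), while the median of all genes was -0.37.

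After stage 2 primordium neither gene was called from one stage to the next. Young fruiting body against stage 2 primordium gave log2 changes of -0.01 for Gat1 (95% interval -0.58 to 0.57) and 0.03 for Bri1 (-0.57 to 0.64). Fruiting body against young fruiting body gave -0.22 (-0.73 to 0.29) and -0.27 (-0.81 to 0.26). Fruiting body against stage 2 primordium gave -0.23 (-0.80 to 0.34) and -0.24 (-0.84 to 0.36). Changes within these intervals could not be told from none with these libraries. In these comparisons 8.71%, 3.54% and 24.3% of all genes were called. The libraries of the stages compared overlapped in every case.

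Between the ends of fruiting a fall was called for both. Fruiting body was below stage 1 primordium by a log2 change of -1.08 for Gat1 (95% interval -1.59 to -0.56; edgeR adjusted p = 0.00473), 2.11-fold. For Bri1 it was -1.01 (-1.55 to -0.47; edgeR adjusted p = 0.00836), 2.02-fold. No library of one stage overlapped the other, and both calls held in 22 of 22 alternatives. Over these edgeR, DESeq2 and limma fits the adjusted p was at most 0.0344 for Gat1 and 0.0465 for Bri1. Falls as large were fitted for 7.73% of genes in the case of Gat1 and 8.8% in that of Bri1. Called genes were 33.9% of all, 14.5% lower. Without fruiting body replicate 1 the change of Bri1 was -0.72 and that of Gat1 -0.90. Young fruiting body against stage 1 primordium gave -0.86 for Gat1 (edgeR adjusted p = 0.0361) and -0.74 for Bri1 (edgeR adjusted p = 0.0721, not called), with 11% of all genes called, 4.18% lower. All 3 young fruiting body libraries lay below all 3 primordia for both genes. The Gat1 call ended without 7 of the 14 libraries, which were mycelium replicates 1 to 3, stage 1 primordium replicates 2 and 3 and young fruiting body replicates 1 and 3 (adjusted p between 0.0505 and 0.12). It also ended with no TMM factor (-0.74, edgeR adjusted p = 0.129). Bri1 was called without fruiting body replicate 1 (-0.74, adjusted p = 0.0063).

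**Figure D2:**
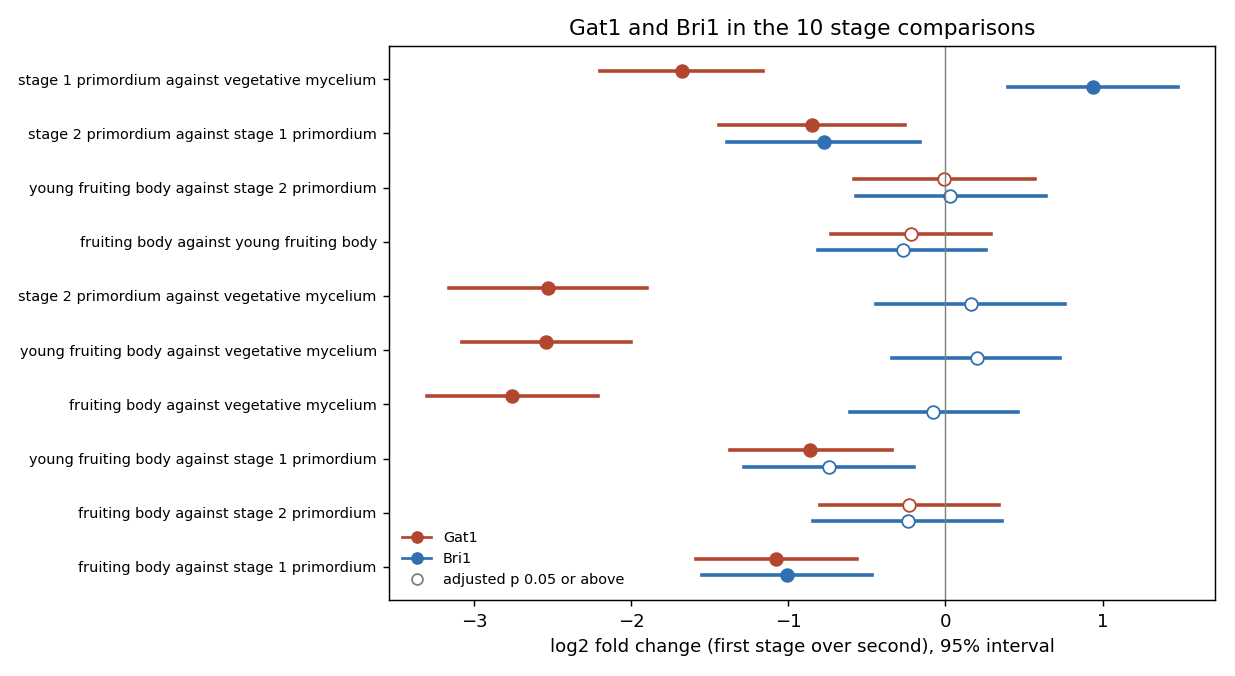
Log2 fold change of Gat1 and Bri1 in each of the 10 stage comparisons, first stage over second, with 95% intervals; filled points passed an adjusted p below 0.05. The intervals of the genes do not overlap in the 4 comparisons with vegetative mycelium, where Gat1 lies between -2.76 and -1.68 and Bri1 between -0.08 and 0.94.

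The stage means of Gat1 descended in the order of development, from mycelium to fruiting body, at 326, 102, 56.4, 56.1 and 48.2 CPM. The first step in that order passed the test and the second did so near its threshold, while the last 2 steps did not exceed the spread. The order of the last 3 stages was not fixed: with no TMM factor stage 2 primordium had the lowest mean, at 41.6 CPM beside 58.1 in young and 52.0 in expanded fruiting bodies. Without stage 2 primordium replicate 3 that stage was at 52.1 CPM, below young fruiting body. The order for Bri1 was stage 1 primordium, young fruiting body, stage 2 primordium, vegetative mycelium and fruiting body, at 86.1, 51.5, 50.3, 44.9 and 42.6 CPM. No step between neighbours in that order passed. With no TMM factor the order was stage 1 primordium, vegetative mycelium, young fruiting body, fruiting body and stage 2 primordium, at 82.8, 53.8, 52.9, 46.1 and 35.8 CPM. Without fruiting body replicate 1 the fruiting body mean of Bri1 was 52.1 ± 0.626 CPM (n = 2), which puts it second. Over the 5 stage means Gat1 spanned 6.75-fold, more than 84.6% of the tested genes, and Bri1 2.02-fold, more than 30.3% (0.1 CPM added to each mean). The median gene spanned 2.63-fold. Over the 4 fruiting stages alone Gat1 spanned 2.11-fold and Bri1 2.02-fold, beside 2.12-fold for the median gene.

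Per transcript length, the levels of Gat1 and Bri1 can be set beside each other. The transcript models are 1804 and 2727 bases long. The authors' deposited log2 RPKM values are reads in proportion to length and library total, with 1 further offset per library. In them Gat1 had a mean level of 7.48 ± 0.19 in mycelium and Bri1 4.04 ± 0.05 (SD, n = 3 each). The RPKM of Gat1 was thus 11.5, 11.6 and 9.75 times that of Bri1 in mycelium replicates 1 to 3, a ratio within a library from which the library's scaling drops out. In stage 1 primordium the ratio was 1.16, 2.12 and 2.22, and in stage 2 primordium replicates 2 and 3 it was 1.46 and 1.96. Young fruiting body had 1.35, 1.79 and 1.81, and fruiting body 2.29, 1.43 and 1.72. Gat1 was the more abundant of the pair in every library, but the 11 fruiting libraries lay between 1.16 and 2.29, far below the mycelium. As a difference of log2 RPKM, Gat1 minus Bri1 was 3.45 ± 0.14 (n = 3) in mycelium. It was 0.82 ± 0.53 (n = 3), 0.76 ± 0.30 (n = 2), 0.71 ± 0.23 (n = 3) and 0.83 ± 0.35 (n = 3) in the 4 fruiting stages in order. The fruiting stages differed from each other by less than their SDs. Stage 1 primordium replicate 1 had the lowest ratio, with the least Gat1 and the most Bri1 of its stage. Ratios from unique reads differed from these by at most 0.01 on the log2 scale.

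**Figure D3:**
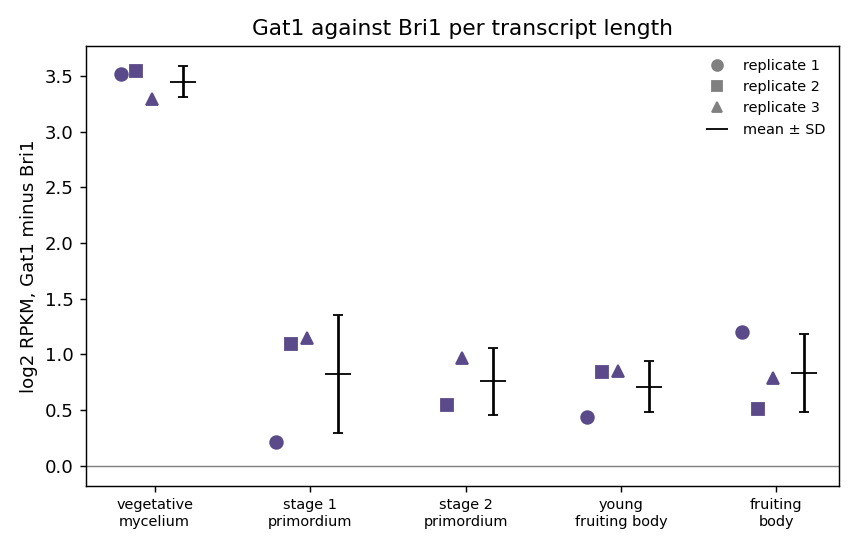
Difference in log2 RPKM, Gat1 minus Bri1, in each library by stage, with the stage mean and SD; 0 would be equal levels per length. Mycelium lies at 3.29 to 3.54 and the 11 fruiting libraries at 0.21 to 1.20.

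Among all transcript models ranked by the authors' deposited TPM (also scaled to length), Gat1 stood at percentiles 95.3 to 96.6 in mycelium. It was at 80.0 to 86.7 in stage 1 primordium and at 66.1 to 75.7 in fruiting body. Bri1 was at 61.9 to 63.2 in mycelium, 72.1 to 77.3 in stage 1 primordium and 62.8 to 64.3 in young fruiting body, and at 48.0 in fruiting body replicate 1 against 63.4 and 63.0 in the others. Both remained readily measured: the fewest unique reads were 448 for Gat1 and 463 for Bri1, both in stage 2 primordium replicate 2. No read of either gene had more than 1 placement in any of the 14 libraries, as total and unique reads were equal throughout.

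Replicates of Bri1 were close in some stages and far apart in one. Its coefficient of variation was 3.16% in mycelium and 3.72% in young fruiting body. Of the 4269 genes within 2-fold of its level in young fruiting body, 2.37% varied less, and their median was 20.7%. In fruiting body it was 38.2%, beside a median of 21.5% for genes of like level, and replicate 1 had 0.458 times the mean of the other libraries. Such a low ratio or a lower one was found for 7.68% of genes, and the median gene was at 1.03. For Gat1 the variation was 12.4% in mycelium and 23.3% in stage 1 primordium, beside medians of 6.35% and 10.6% for genes of like level. It was 10.9% in stage 2 primordium (n = 2), 15.4% in young and 24.6% in expanded fruiting bodies, beside medians of 23.4%, 20.7% and 21.4%. These values depend on the TMM factors. Without them Gat1 was at 41.6 ± 18.4 CPM in stage 2 primordium (n = 2) and Bri1 at 52.9 ± 4.72 in young fruiting body (SD, n = 3). Genes of like level were not compared in that setting.

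Of 8 regulators with known roles in fruiting that were looked for by symbol, 4 had a matched transcript: c2h2, a zinc finger regulator needed for aggregates to become primordia, Fst3 and Fst4, fungal-specific zinc cluster regulators, and WC1, the blue light receptor. In stage 1 primordium against mycelium 1 of these 4 was called higher, c2h2 (log2 change 3.34 ± 0.55 SE, edgeR adjusted p = 0.000346), and 0 lower, beside 22.5% of all genes called higher and 44% called in either direction. The median was 0.68, with 0.02 for all genes. Fst3 and Fst4 had log2 changes of 0.85 ± 0.39 and 0.50 ± 0.28 (adjusted p = 0.0944 and 0.168). In stage 2 against stage 1 primordium 2 of 4 were called lower, c2h2 and Fst4, and WC1 higher, beside 41.5% of all genes called and 19.3% called lower. The median was -0.89, with 0.04 for all genes. In fruiting body against stage 1 primordium c2h2 and Fst4 were called lower and 0 of 4 higher, beside 33.9% of all genes called and 14.5% called lower. The median was -0.83, with 0.04 for all genes. With no TMM factor c2h2 and Fst4 were not called there (-1.31 and -0.83; edgeR adjusted p = 0.119 and 0.0992), and WC1 was called higher (0.71, edgeR adjusted p = 0.0195). The highest stage mean was that of stage 1 primordium for 4 of the 6 genes, Bri1, c2h2, Fst3 and Fst4. The share of all genes with their highest mean in that stage was not counted. Gat1 had its highest mean in mycelium and WC1 in stage 2 primordium, at 268 ± 125 CPM (n = 2). Against mycelium Gat1 was called lower in all 4 fruiting stages and none of the other 5 was called lower in any. With no TMM factor, however, Fst4 was called lower in stage 2 primordium (-1.25, edgeR adjusted p = 0.0212). Of all genes 21.4%, 19.3%, 14.1% and 17.9% were called lower in the 4 stages in order. Called higher than mycelium were c2h2 and WC1 in young and expanded fruiting bodies, and WC1 in stage 2 primordium. With no TMM factor WC1 was not called in young fruiting body (0.47, edgeR adjusted p = 0.0995).

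Fruiting body replicate 1 was the lowest of its stage for all 6 regulators. Beside Bri1, at 0.458 of the mean of the other libraries, Fst3 was at 0.307, c2h2 at 0.341, Fst4 at 0.489, Gat1 at 0.665 and WC1 at 0.824. Ratios as low or lower were found for 2.35%, 3.23%, 9.22%, 21.3% and 34.1% of all genes, so those of Gat1 and WC1 were common in this library. It was the lowest of all 14 libraries for Gat1, Bri1, Fst3 and Fst4. The share of all genes that were lowest in this library, of its stage or of all 14, was not counted.

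**Figure D4:**
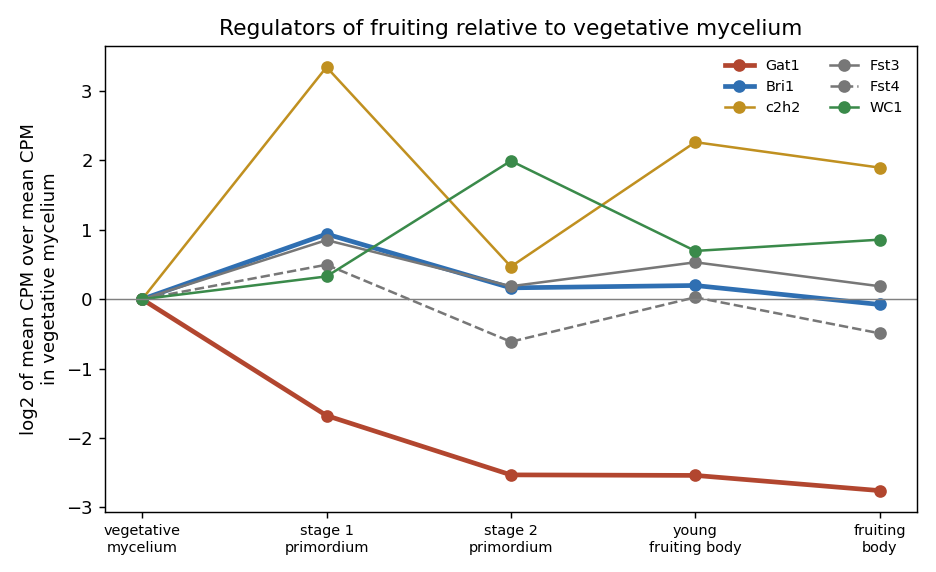
Mean CPM of Gat1, Bri1 and 4 other regulators of fruiting in each stage, as log2 over the mean in vegetative mycelium. Gat1 goes down to between -2.76 and -1.68, c2h2 up to 3.34 in stage 1 primordium, and Bri1 up by 0.94 there and back.

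By the correlation of log2 CPM over the 14 libraries, the genes most like Gat1 also had a high mycelium and a low level after it. SCHCODRAFT_02640992 (r = 0.962) went from a mean of 94.0 CPM in mycelium to 31.9 in stage 1 primordium and 20.7 in fruiting body. SCHCODRAFT_02637542 (r = 0.954) went from 74.0 to 17.4 and 6.58 CPM. SCHCODRAFT_064002 (r = 0.956) went from 514 to 40.3 and 17.3 CPM. The remaining genes of the 5 most alike were SCHCODRAFT_01240410 and SCHCODRAFT_02628336. These values rest largely on the gap between mycelium and fruiting: over the 11 fruiting libraries r was 0.694 to 0.828 for the 5, and 0 of them were among the 5 most alike there. Most opposite were SCHCODRAFT_01082954 (r = -0.970), from 9.00 CPM in mycelium to 69.3 in stage 1 primordium and 162 in fruiting body, SCHCODRAFT_02620969 and SCHCODRAFT_02523228.

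The genes most like Bri1, chosen by the same correlation, peaked with it in stage 1 primordium. SCHCODRAFT_02684764 (r = 0.963) had means of 86.5 CPM in mycelium, 174 in stage 1 primordium and 82.6 in stage 2 primordium. SCHCODRAFT_01127902 (r = 0.957) had 14.5, 36.5 and 14.7 CPM. SCHCODRAFT_02571469 (r = 0.952) had 47.3, 83.3 and 48.7 CPM. The remaining genes of the 5 were SCHCODRAFT_02750231 and SCHCODRAFT_02169920, and over the 11 fruiting libraries all 5 kept r between 0.954 and 0.974. These 11 are part of the 14 libraries used to choose them, and 1 of the 5 was among the 5 most alike there. Most opposite were SCHCODRAFT_02611941, SCHCODRAFT_02548620 and SCHCODRAFT_02618755 (r = -0.941, -0.938 and -0.934), each with its lowest mean in stage 1 primordium. Their r was -0.504, -0.400 and -0.615 with no TMM factor. Gat1 and Bri1 themselves had r = 0.088 with each other over 14 libraries and 0.816 over the 11 fruiting libraries. All these correlations describe libraries that share stages and scaling.

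Genes next to the pair in the order of RefSeq's Schco3 gene table did not follow one course. The kit gives unstranded libraries, and the table names no strand. SCHCODRAFT_02609899, next to Bri1, had a mean of 31.3 ± 1.12 CPM in mycelium, 86.1 ± 1.93 in stage 1 primordium and 57.9 ± 3.43 in fruiting body (SD, n = 3 each). It rose in stage 1 primordium and was still above mycelium in fruiting body (log2 changes 1.46 ± 0.20 and 0.89 ± 0.20 SE; edgeR adjusted p = 8.11e-05 and 0.00302), a stage in which Bri1 was not called against mycelium. None of its reads had more than 1 placement. SCHCODRAFT_02720685, on the other side of Bri1, was at 1.55 ± 0.258 and 2.33 ± 0.208 CPM in the first 2 stages and was not called there (edgeR adjusted p = 0.148). In fruiting body it was at 3.23 ± 0.637 CPM and was called higher than in mycelium (log2 change 1.06 ± 0.31 SE, edgeR adjusted p = 0.0134). Over the 14 libraries 964 of its reads had more than 1 placement, and these entered neither its CPM nor its test. Both thus rest on the smaller part of its reads. SCHCODRAFT_02256916, next to Gat1, was at 2.33 ± 0.605 CPM in mycelium, 1.13 ± 0.375 in stage 1 primordium and 2.98 ± 0.886 in fruiting body. It was not called against mycelium in either stage (-1.06 ± 0.44 and 0.34 ± 0.41; edgeR adjusted p = 0.0635 and 0.532). The gene on the other side of Gat1 did not pass the filter on low counts. These neighbours were chosen by position after the values of Gat1 and Bri1 had been seen.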

How the data were processed

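Per the file headers, the authors deposited for each library raw read counts per transcript model, as unique and total gene reads, beside TPM made by the authors. The deposited series table holds log2 values whose unit is RPKM. Recomputed from total reads it matched RPKM on a log2 scale with 1 offset per library (-0.273 to 0.863) and a spread of at most 0.001. The lowest offset, -0.273, was in vegetative mycelium replicate 2, which had the highest TMM factor (1.214). The highest, 0.863, was in stage 2 primordium replicate 2, which had the lowest factor (0.5484). Limma on this table was thus not an alternative without a library factor. R 3.0.2, limma 3.18.13 and edgeR 3.4.2 appear, with no stated role, in the submitters' processing notes. Neither the aligner nor the genome build is given in the sources used here. 16024 of 16319 models matched a RefSeq Schco3 locus tag: 14009 after subtracting 287 from the model number (Gat1 and Bri1 among them), 2004 by the same number and 11 by an older tag.

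Tests of unique reads used edgeR 4.0.16 (R 4.3.3), with low counts removed by filterByExpr, TMM factors and a quasi-likelihood fit of stage (robust) over 14 libraries, in 10 two-sided comparisons, each with Benjamini-Hochberg adjustment over 14302 genes and a call at adjusted p below 0.05. The SE is the log2 change over the square root of F, and 95% intervals use the fit's degrees of freedom. The fit was tested on simulated data. Alternatives were no filter, no TMM factor, DESeq2 1.42.0, limma-voom (limma 3.58.1), total reads, limma on the series table, a replicate block, a fit of only the stages compared, and leaving out each library. Named genes were Gat1, Bri1, regulators with a matched symbol, and the 5 most and 3 least correlated genes (log2 CPM, prior count 2). SC1 and SC4, planned as markers, had no match. Members and lists were chosen with earlier results of these data known.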

Additional observations from a re-analysis of the deposited data

How the results depend on the processing

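Over 22 alternatives each, the 10 comparisons kept these calls throughout: Gat1 lower in all 4 fruiting stages than in mycelium, and both genes lower in fruiting body than in stage 1 primordium. Where a setting changed a call or a sign the cause was not tested. For some changes with no TMM factor, the value relative to the median of all genes is given above.

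With no TMM factor, stage 1 primordium against mycelium gave Bri1 0.62 (call ended), stage 2 primordium and young fruiting body against mycelium gave Bri1 -0.59 and -0.03, young fruiting body against stage 2 primordium gave Gat1 0.48, fruiting body against stage 2 primordium gave Gat1 0.32 and Bri1 0.37, and young fruiting body against stage 1 primordium gave Gat1 -0.74 (call ended, adjusted p = 0.129). Stage 2 against stage 1 primordium ended for Bri1 with no low-count filter (-0.75, adjusted p = 0.0523) and with limma on the authors' log2 RPKM (-0.77, adjusted p = 0.0509). In a fit of only the stages compared it ended for Gat1 (-0.84), as did young fruiting body against stage 1 primordium (-0.84, adjusted p = 0.0741), while Bri1 was called in the latter (-0.72, adjusted p = 0.0492), as with DESeq2 (-0.77, adjusted p = 0.0441). DESeq2 gave Bri1 -0.03 in young fruiting body against stage 2 primordium.

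Same-numbered libraries of different stages had correlated deviations from their stage means in 3 of 26 pairs at r above 0.1 (range -0.258 to 0.231). Differently numbered pairs were not compared, so these values cannot show whether same-numbered libraries shared a culture or batch. With a replicate block the call of Bri1 in stage 2 against stage 1 primordium ended (-0.84, adjusted p = 0.0533), Gat1 in young fruiting body against stage 2 primordium was 0.10, and 201 and 235 genes were called in young fruiting body against stage 2 primordium and fruiting body against young fruiting body (1246 and 506 without it).

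Leaving out 1 library, log2 changes in stage 2 against stage 1 primordium ran from -1.01 to -0.68 for Gat1 and -0.88 to -0.62 for Bri1. In young fruiting body against stage 2 primordium they ran from -0.10 to 0.11 and -0.11 to 0.15, and against stage 1 primordium from -1.03 to -0.71 and -0.82 to -0.63. For Bri1 they ran from -0.45 to 0.02 in fruiting body against young fruiting body, -0.25 to 0.21 against mycelium and -0.42 to 0.05 against stage 2 primordium. Where stage 2 primordium is left with 1 library, that library is assumed to vary like the other stages. Counts of called genes over all models ran from 3069 to 6637 (5930 with every library) in stage 2 against stage 1 primordium, 0 to 3621 (1246) in young fruiting body against stage 2 primordium, 0 to 855 (506) in fruiting body against young fruiting body, 3955 to 6951 (6237) in stage 2 primordium against mycelium, 558 to 2372 (1571) in young fruiting body against stage 1 primordium and 52 to 4803 (3474) in fruiting body against stage 2 primordium.

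The 0 counts came from edgeR without stage 2 primordium replicate 2 and without young fruiting body replicate 3 (1636 and 2859 genes at an unadjusted p below 0.05). Fitted on only the stages compared, edgeR called 0 genes in young fruiting body against stage 2 primordium, fruiting body against young fruiting body and fruiting body against stage 2 primordium (2139, 2253 and 3684 at an unadjusted p below 0.05), 3939 in stage 2 against stage 1 primordium and 961 in young fruiting body against stage 1 primordium. DESeq2 called 2359 in young fruiting body against stage 2 primordium, 1332 in fruiting body against young fruiting body and 2460 in young fruiting body against stage 1 primordium; limma-voom called 779 in the first, and 225 and 299 were called in the second with no TMM factor and with limma on the authors' table. Of the 5 genes most like Gat1, 2 remained among the 5 with no TMM factor, and of those most like Bri1, 4 did, and 1 over the fruiting libraries alone.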
